A study of Mus musculus with 6 samples.

Results

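The genes described here are 36 immediate early and stress genes, the early response and heat shock genes that collagenase digestion and cell sorting can switch on. They were chosen by gene symbol, and all 36 were found among the 17128 genes of the count table. RNA sequencing was done on cells sorted from the femurs of mice at postnatal day 21, with about 20000 cells per library. The 3 control libraries held GFP+ cells of genotype Cxcl12(GFP/fl); R26R(tdTomato/+). The 3 CXCL12-deficient libraries held GFP+ tdTomato+ cells of the same genotype with Col2a1-cre added. Every mouse of both groups therefore had GFP in place of one Cxcl12 allele, a floxed second allele and the tdTomato reporter. The Col2a1 promoter drives cre in cells that express Col2a1 and marks their descendants, so the cre transgene, the tdTomato gate and the state of the floxed allele changed together between the groups and cannot be told apart. The labels do not say whether a library came from 1 animal or from several, so the spread between libraries may be partly technical. All 6 libraries went through collagenase digestion and sorting, and no undigested sample was analysed here.

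Immediate early genes are transcribed within minutes of a growth factor, stress or mechanical signal without new protein synthesis. The signals, many of them through kinases such as ERK, p38 and protein kinase A, act on factors already present in the cell. These include SRF with its Elk partners, CREB, NF-kB and, for the chaperone genes, HSF1. The products include both transcription factors (Fos, Jun, Egr1) and inhibitors that end the signal (the Dusp phosphatases, Zfp36, Socs3, Nfkbia). Enzymatic digestion of bone and passage through a sorter are known to set off the same response, so in sorted cells these transcripts can mix what the cells made in the tissue with what they made on the bench.

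Promoter sequence was matched for 32 of the 36 genes, with 37 windows in all, each running from 250 bases before to 50 bases after a RefSeq start (GRCm38.p6). Windows were searched on both strands for known binding sequences of the factors named above. The CRE half-site TGACG, bound by CREB and related factors, was in 19 of the 37 windows, or 51.4%, against 20.8% of all 32851 mouse windows. The full CRE TGACGTCA, which contains that half-site, was in 3 of the 37 windows (Dusp1, Btg2 and Ppp1r15a) and in 1.79% of all windows. The CArG box of SRF was in 6 of the 37 windows, from 3 genes (Egr2, Dusp5 and Zfp36), and in 1.63% of all windows. The Egr site GCGNGGGCG was in 11 of the 37 windows and in 5.55% of all, and the NF-kB site in 6 of the 37 and in 4.51% of all. A heat shock element (GAANNTTC or TTCNNGAA) was in 6 of the 37 windows and in 15.1% of all, TATAAA in 8 of the 37 and in 13.6% of all, and the AP-1 site TGANTCA in 0 of the 37 and in 7.81% of all. Of the 37 windows 5 belong to separate starts of Egr2, some of which overlap, and a match describes the letters only. The windows were not matched for base composition, and TGACG and the Egr site both contain the letters CG. The part of base composition in these shares was not tested. Genes that matched no window were not searched at all, so their absence above is not a result. Sequence outside the windows was not searched either, so a gene without a match can still have a site further away.

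The stretches below end at the base before the RefSeq start and read 5′ to 3′ on the strand of the gene. They are shown because Dusp2 and Dusp5 gave the largest differences among the 34 genes with at least 10 CPM in every library, and the others carry the motif types of the response. Capitals mark the Egr site in Dusp2 (chr2:127336009-127336158, plus strand) and the CArG boxes in Dusp5 (chr19:53528995-53529144, plus strand) and Zfp36 (chr7:28379229-28379378, minus strand). They mark the CRE half-sites and the TATA box in Fos (chr12:85473740-85473889, plus strand) and the full CRE in Dusp1 (chr17:26508473-26508672, minus strand). In Hspa1a (chr17:34972157-34972306, minus strand) and Hspa1b (chr17:34959239-34959388, minus strand) they mark the heat shock element.
Dusp2: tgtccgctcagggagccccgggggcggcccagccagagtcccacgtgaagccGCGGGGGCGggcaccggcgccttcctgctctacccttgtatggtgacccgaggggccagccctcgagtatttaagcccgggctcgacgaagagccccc
Dusp5: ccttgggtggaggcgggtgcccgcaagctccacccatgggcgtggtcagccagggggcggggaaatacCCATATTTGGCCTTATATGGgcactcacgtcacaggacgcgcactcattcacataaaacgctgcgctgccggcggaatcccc
Zfp36: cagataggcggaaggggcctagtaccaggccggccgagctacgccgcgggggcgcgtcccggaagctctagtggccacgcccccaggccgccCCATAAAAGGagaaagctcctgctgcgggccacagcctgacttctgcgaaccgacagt
Fos: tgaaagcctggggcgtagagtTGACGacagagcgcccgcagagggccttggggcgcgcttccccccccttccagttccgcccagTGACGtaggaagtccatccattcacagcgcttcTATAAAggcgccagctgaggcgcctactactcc
Dusp1: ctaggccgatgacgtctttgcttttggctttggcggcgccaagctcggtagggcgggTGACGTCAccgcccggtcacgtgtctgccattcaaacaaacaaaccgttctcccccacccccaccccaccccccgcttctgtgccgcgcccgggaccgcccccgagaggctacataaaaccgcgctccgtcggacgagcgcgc
Hspa1a: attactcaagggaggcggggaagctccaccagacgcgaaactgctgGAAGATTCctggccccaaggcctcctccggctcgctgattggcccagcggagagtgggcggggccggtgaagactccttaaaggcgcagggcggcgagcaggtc
Hspa1b: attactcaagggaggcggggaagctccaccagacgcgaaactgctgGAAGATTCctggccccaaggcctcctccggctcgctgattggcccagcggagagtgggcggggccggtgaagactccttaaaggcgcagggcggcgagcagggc

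Dusp5 carries 2 CArG boxes end to end, from base -82 to -73 and from -72 to -63 before the start. The Egr site of Dusp2 lies at -98 to -90 and the CRE of Dusp1 at -143 to -136. The 2 Hspa1 stretches differ at 1 of 150 bases, and each has its heat shock element at -104 to -97.

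Library totals lay between 20133299 and 28009257 counts. Levels are given as CPM, which are counts brought to the same total by TMM factors, in which a single read is worth 0.0357 to 0.0472 CPM. Cxcl12, the targeted gene, had between 3671 and 3874 CPM in the controls and between 1163 and 1423 CPM in the CXCL12-deficient libraries. All 9 marker genes of marrow stroma were detected, and their summed level was 5589 to 6546 CPM in the controls and 8001 to 10897 CPM in the CXCL12-deficient libraries. Neutrophil, monocyte and endothelial markers were present in both sorts, with lower sums in every CXCL12-deficient library than in any control. The summed level of 11 neutrophil markers was 14408 to 20216 CPM in the controls and 2337 to 6730.3 CPM in the CXCL12-deficient libraries. For 7 monocyte and macrophage markers the sums were 2099.7 to 3269 and 385 to 795 CPM, and for 8 endothelial markers 73.6 to 138 and 11.8 to 21.6 CPM. No marker of these lists was at 0 in all 6 libraries.

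The early response was strongly represented in every library. The 36 genes took between 2.67% and 2.96% of all counts in controls and between 2.42% and 3.08% in CXCL12-deficient libraries, ranges that overlap. All 36 passed the filter on low counts, and their median level was 386 CPM, beside 24.3 CPM for all 13926 tested genes. Among all tested genes, 61 had at least 1000 CPM in every library, and 8 of them belong to the set: Fos, Jun, Junb, Jund, Egr1, Dusp1, Zfp36 and Cyr61. Per kilobase of exon, between 10 and 12 of the 36 stood among the 100 highest genes of each library. At the other end Egr3 and Nr4a3 stayed under 3 CPM throughout, although their relatives Egr1 and Nr4a1 were among the highest genes.

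**Figure D1:**
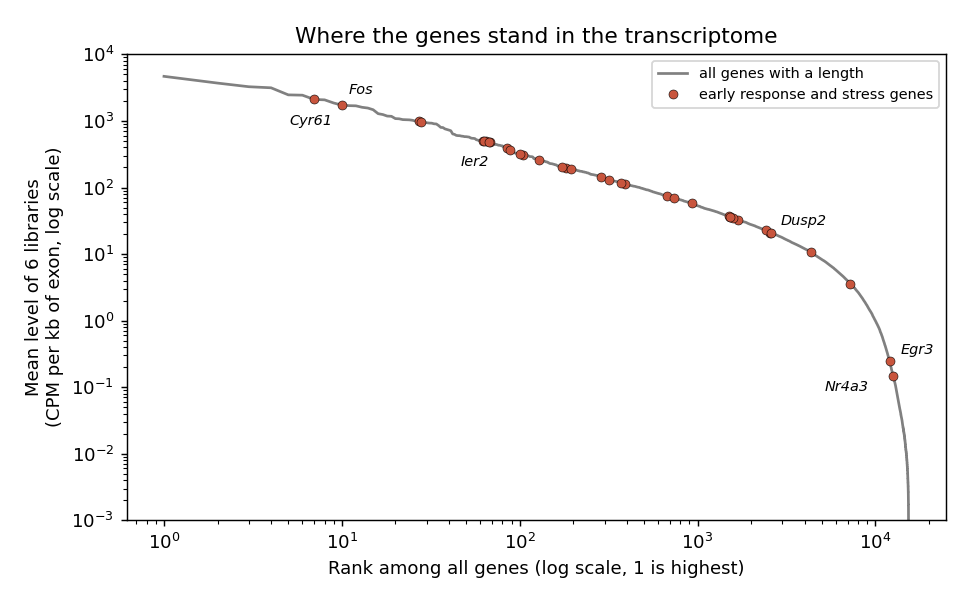
Mean level of the 6 libraries in CPM per kilobase of exon (vertical, log scale) against rank among all 15357 genes with a GENCODE M21 length (horizontal, log scale), with the 36 early response and stress genes as red points. Cyr61 and Fos lie near the top of the curve (ranks 4 to 17 in single libraries), and Egr3 and Nr4a3 lie at its lower end (ranks 11108 to 12970).

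Across the set, 1 gene fell and 0 rose in the CXCL12-deficient libraries (edgeR quasi-likelihood test, adjusted p below 0.05 over all 13926 genes). The gene that fell is Dusp2. Over all tested genes 3.94% were called lower, 0.639% higher and 4.57% in either direction, so the count of 1 in 36 is near the background. By limma-voom the same counts were 1 lower and 0 higher, where limma-voom called 3.88% of all genes lower. By DESeq2 they were 4 lower (Dusp2, Dusp5, Klf2 and Nr4a2) and 0 higher, where DESeq2 called 6.65% of all genes lower. At an unadjusted p below 0.05, 4 genes of the set were lower and 1 higher, or 13.9% of the set against 18.9% of all tested genes (11.3% lower and 7.59% higher). The median log2 fold change was -0.149 in the set and 0.028 over all tested genes, with 23 of 36 values (63.9%) negative against 47.4% over all tested genes.

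The precision of these libraries bounded most differences. For 28 of the 36 genes (77.8%) the 95% interval of the difference lay within 2-fold in either direction, as it did for 55.1% of all tested genes. The set had the higher median level (386 against 24.3 CPM), and the intervals of genes of like level were not compared. The 8 exceptions were Egr3, Atf3, Dusp2, Dusp5, Nr4a3, Socs3, Hspa1a and Hspa1b. The median coefficient of variation between replicate libraries was 15.9% (controls) and 19.5% (CXCL12-deficient) for the set, and 17.9% and 21.5% for all tested genes.

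The control and CXCL12-deficient libraries did not overlap at 8 genes. Dusp2, Dusp5, Klf2, Klf4, Nr4a2 and Myc were lower in every CXCL12-deficient library, and Jund and Gadd45g were higher in every one. Of all tested genes 13.9% separated downward and 11.7% upward, so 6 and 2 of 36 are again near the background. Of these 8 genes, edgeR called only Dusp2.

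**Figure D2:**
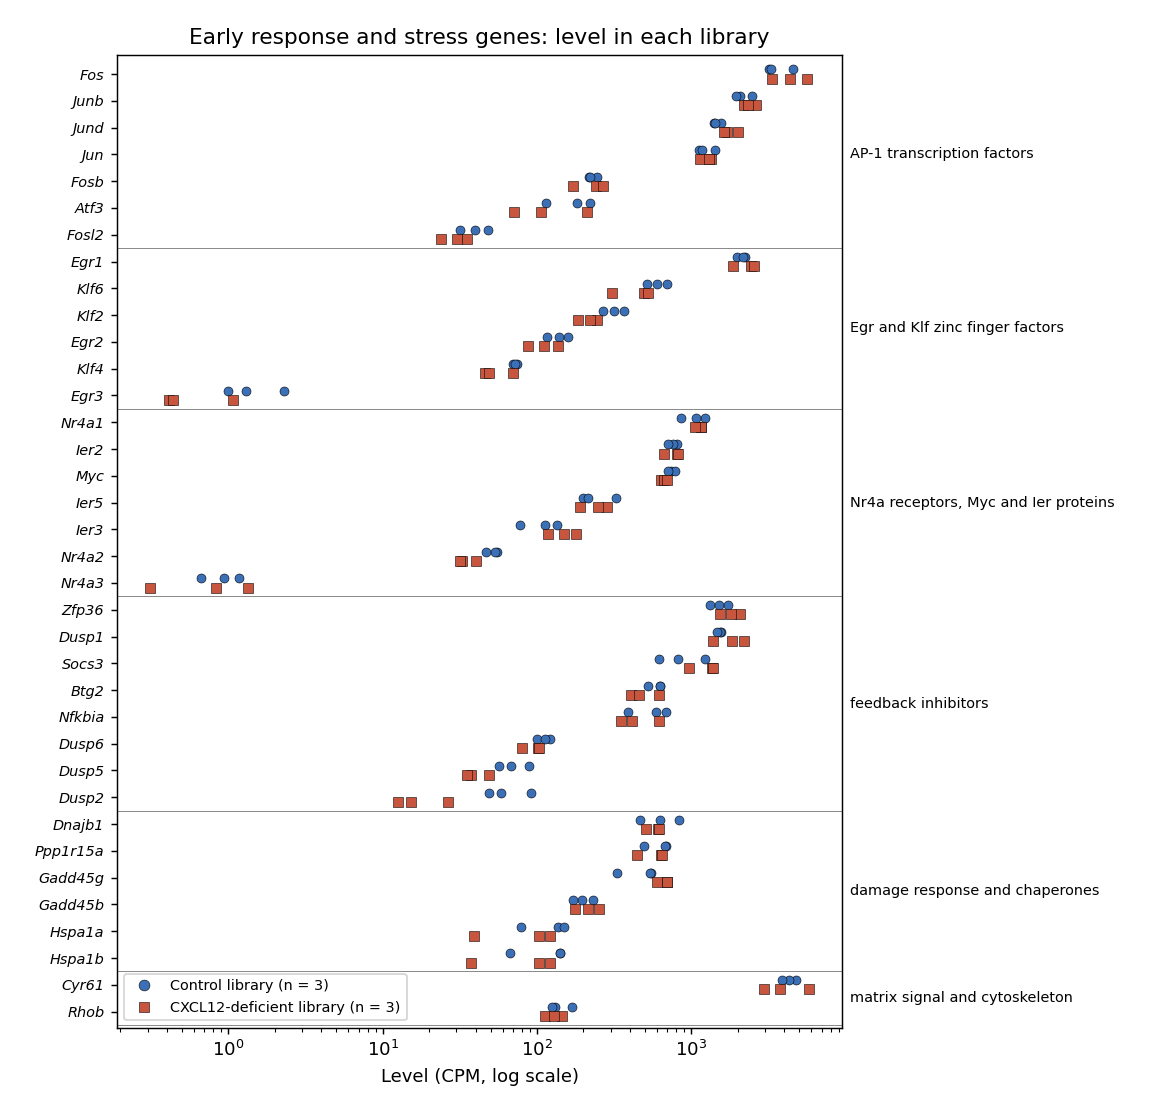
Level of each gene in CPM (horizontal, log scale) in the 3 control libraries (blue circles) and the 3 CXCL12-deficient libraries (red squares), grouped by role. The symbols of the 2 groups interleave for most genes and do not overlap for Dusp2, Dusp5, Klf2, Klf4, Nr4a2, Myc, Jund and Gadd45g.

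The AP-1 factors bind DNA as pairs of a Fos and a Jun protein and are the best known output of the response. None of the 7 AP-1 genes was called by limma-voom, edgeR or DESeq2, with 0 at an unadjusted p below 0.05, and their log2 fold changes ran from -0.43 to 0.28. Fos had 4545, 3200.2 and 3271 CPM in the controls and 5646, 3334 and 4381 CPM in the CXCL12-deficient libraries. The highest Fos value was in CXCL12-deficient replicate 1, the other libraries of both groups interleaved, and Fos ranked between 8 and 19 of all genes by CPM in every library. Its log2 fold change was 0.28 ± 0.24 (SE; adjusted p = 0.61, edgeR), with a 95% interval from 0.827-fold to 1.78-fold.

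Jun and Junb, the dimer partners of Fos, were steadier. Jun had 1433, 1128 and 1175 CPM in the controls and 1338, 1134 and 1300.3 CPM in the CXCL12-deficient libraries. These values overlap fully, and the interval of the Jun difference ran from 0.773-fold to 1.32-fold. Junb, which opposes Jun at some targets, had 2455, 2059.9 and 1952 CPM against 2642, 2187 and 2316 CPM, also overlapping.

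Jund is the Jun family member that resting cells keep at a high level. It had 1396, 1551 and 1422 CPM in the controls and 1701, 1616 and 2001 CPM in the CXCL12-deficient libraries, so every CXCL12-deficient library was above every control. The log2 fold change of Jund was 0.28 ± 0.17 (adjusted p = 0.41, edgeR).

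The less abundant AP-1 genes also overlapped between the groups. Fosb had 229 ± 15.2 CPM in the controls and 226 ± 50.6 CPM in the CXCL12-deficient libraries (SD, n = 3 each). Fosl2, which encodes Fra-2, had 39.9 ± 8.43 and 29.7 ± 5.58 CPM. Atf3, a stress-induced factor that pairs with Jun proteins, had 222, 181 and 115 CPM in the controls and 212, 70.6 and 106 CPM in the CXCL12-deficient libraries. Control replicate 3 and CXCL12-deficient replicates 2 and 3 were low for Atf3, and its 95% interval, from 0.413-fold to 1.36-fold, leaves room for a difference over 2-fold. Per kilobase of exon, Fos had 1561 ± 322 CPM in controls, Junb 937 ± 115, Jund 873 ± 49.7, Jun 391 ± 51.6, Atf3 80.1 ± 25.0, Fosb 36.6 ± 2.43 and Fosl2 4.13 ± 0.871 (SD, n = 3). Neighbours in that order that lie within their spread of each other are Junb and Jund.

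The Egr and Klf genes encode zinc finger factors, the first induced by ERK signalling and the second better known for quiescence and differentiation. By edgeR 0 of 6 was called, while DESeq2 called 1 (Klf2), limma-voom called 0 and 1 had an unadjusted p below 0.05. Egr1 had 2235, 1979.8 and 2161 CPM in the controls and 2448, 1861 and 2552 CPM in the CXCL12-deficient libraries. The CXCL12-deficient values lie on both sides of the controls, with an interval from 0.807-fold to 1.44-fold. Egr2 had 138 ± 21.5 CPM in the controls and 112 ± 24.9 CPM in the CXCL12-deficient libraries, and the groups overlap. Egr3 rested on 64, 32 and 21 reads in controls and 10, 10 and 24 reads in CXCL12-deficient libraries. Its interval ran from 0.131-fold to 1.35-fold, and reached lower than that of any other gene of the set.

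Klf2, a factor of endothelial cells and resting lymphocytes, had 365, 269 and 315 CPM in the controls and 246, 184 and 221 CPM in the CXCL12-deficient libraries. Every control exceeded every CXCL12-deficient library, with a log2 fold change of -0.54 ± 0.17 (adjusted p = 0.13, edgeR; adjusted p = 0.047, DESeq2). Klf4, of epithelial and monocyte differentiation, had 73.7, 70.3 and 71.7 CPM against 45.8, 48.7 and 69.5 CPM. The third CXCL12-deficient library came within 1 CPM of the controls, so the separation of Klf4 rests on a small gap. Klf6, a widely expressed member, had 603 ± 85.8 CPM in the controls and 439 ± 115 CPM in the CXCL12-deficient libraries, with an overlap (log2 fold change -0.46 ± 0.22, adjusted p = 0.31, edgeR). The endothelial and leukocyte markers given above were lower in the same libraries as Klf2, and their part in its difference was not tested. In bulk samples fewer cells of a type and less RNA per cell cannot be told apart.

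The Nr4a genes encode orphan nuclear receptors that need no ligand and act as soon as they are made. Nr4a1 had 1218, 1068 and 851 CPM in the controls and 1151, 1162 and 1058 CPM in the CXCL12-deficient libraries, inside the range of the controls. Nr4a2 had 55.3, 53.3 and 46.8 CPM in the controls and 32.5, 31.6 and 40.5 CPM in the CXCL12-deficient libraries. All 3 control values of Nr4a2 were higher, with a log2 fold change of -0.57 ± 0.17 (adjusted p = 0.11, edgeR; adjusted p = 0.042, DESeq2). Nr4a3 had at most 33 reads in a library, and its interval ran from 0.267-fold to 3.02-fold. Per kilobase of exon Nr4a1 had 298 ± 52.6, Nr4a2 12.8 ± 1.09 and Nr4a3 0.154 ± 0.0431 CPM in controls (SD, n = 3), an order kept in the CXCL12-deficient libraries (320 ± 16.3, 8.59 ± 1.21 and 0.139 ± 0.0869).

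Myc, the growth and proliferation factor, had 739, 788 and 711 CPM in the controls and 632, 666 and 697 CPM in the CXCL12-deficient libraries. The groups separated, but the log2 fold change was only -0.17 ± 0.15 (adjusted p = 0.61, edgeR), and 1.41-fold was the largest decrease inside the interval. The Ier genes are named as immediate early response genes. Ier2 had 761 ± 50.8 CPM in the controls and 766 ± 83.7 CPM in the CXCL12-deficient libraries, the narrowest range of the set (1.22-fold from the lowest to the highest of the 6 libraries). Ier3, a survival factor, had 135, 112 and 77.7 CPM against 179, 117 and 149 CPM, with an overlap. Ier5 had 246 ± 69.9 and 241 ± 48.2 CPM. Of the 7 Nr4a, Myc and Ier genes, 0 was called by edgeR or limma-voom and 1 by DESeq2 (Nr4a2), and 1 had an unadjusted p below 0.05.

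**Figure D3:**
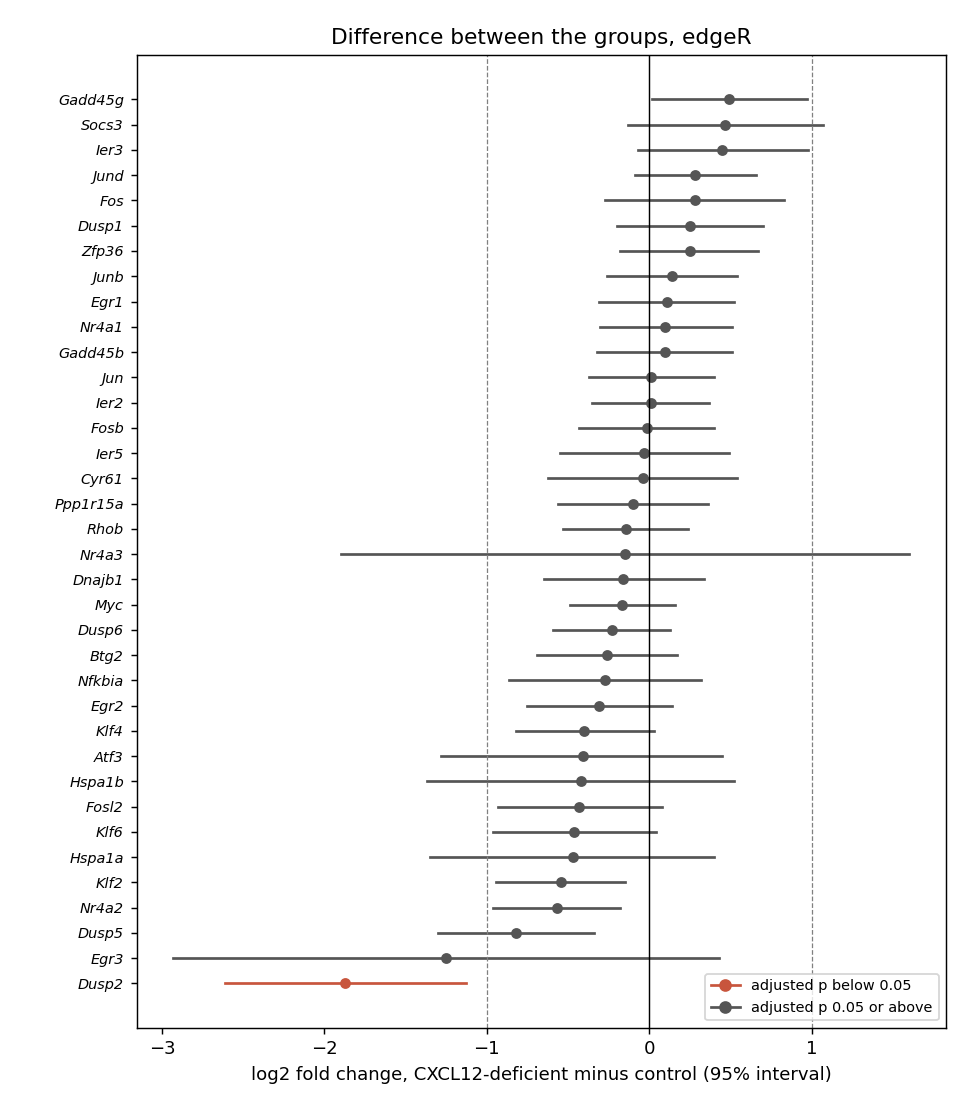
Log2 fold change of each gene, CXCL12-deficient minus control (horizontal), with its 95% interval from edgeR and genes in order of the value. Dusp2 in red is the only gene with an adjusted p below 0.05, the dashed lines mark 2-fold either way, and 28 of the 36 intervals lie between them.

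The 8 genes grouped as inhibitors are the Dusp genes, Zfp36, Socs3 and Nfkbia, which act on the signal or its products, and Btg2, an inhibitor of cell division. Of these 8, edgeR and limma-voom each called 1 (Dusp2) and DESeq2 called 2 (Dusp2 and Dusp5), all lower in the CXCL12-deficient libraries. Dusp2 encodes a nuclear phosphatase of MAP kinases that is known chiefly from activated leukocytes. Dusp2 had 49.2, 58.2 and 91.4 CPM in the controls and 15.3, 26.5 and 12.6 CPM in the CXCL12-deficient libraries. The lowest control was above the highest CXCL12-deficient library. Dusp2 was 3.65-fold lower, with a 95% interval from 2.18-fold to 6.09-fold (log2 fold change -1.87 ± 0.33 SE, adjusted p = 0.017, edgeR). The call was lost without control replicate 2 (adjusted p = 0.055), control replicate 3 (adjusted p = 0.076) or CXCL12-deficient replicate 1 (adjusted p = 0.056), and over all alternatives the adjusted p ran from 1.5e-06 to 0.076.

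The leukocyte gene Ptprc (CD45) had 59.8, 75.4 and 107 CPM in the controls and 12.7, 16.9 and 10.2 CPM in the CXCL12-deficient libraries. Its highest control was replicate 3 and its highest CXCL12-deficient library replicate 2, as for Dusp2. The neutrophil and the monocyte and macrophage sums had another order, highest in control replicate 2 and in CXCL12-deficient replicate 1. The B lineage sum was highest in control replicate 3 and nearly level across the CXCL12-deficient libraries (503 to 514 CPM). The T and NK sum was highest in replicate 2 of each group. Of the marker lists, 11 of 11 neutrophil, 6 of 7 monocyte and macrophage, 3 of 8 B lineage and 2 of 5 T and NK cell genes were also called lower by edgeR. Of the 8 B lineage markers 7 had a negative log2 fold change. The most abundant of them, Ebf1, was higher in every CXCL12-deficient library (275 ± 15.5 against 353 ± 68.3 CPM, SD). Its log2 fold change was 0.36 ± 0.17 (SE; adjusted p = 0.29, edgeR). The part of leukocytes in the fall of Dusp2 was not tested.

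Of the 3 other Dusp genes of the set, edgeR and limma-voom called 0 and DESeq2 called 1 (Dusp5). Dusp5, a nuclear phosphatase of ERK, had 56.8, 68.0 and 89.2 CPM in the controls and 37.1, 35.3 and 48.7 CPM in the CXCL12-deficient libraries. The groups did not overlap, and control replicate 3 was highest for Dusp5 as it was for Dusp2. Of the CXCL12-deficient libraries, replicate 3 was the highest for Dusp5 and the lowest for Dusp2 (12.6 CPM). The log2 fold change of Dusp5 was -0.82 ± 0.21 (adjusted p = 0.068, edgeR), and the adjusted p over its alternatives ran from 0.01 by DESeq2 to 0.27 without control replicate 3 (0.049 without control replicate 1). Dusp6, the cytoplasmic phosphatase of ERK, had 111 ± 10.7 CPM in the controls and 95.1 ± 13 CPM in the CXCL12-deficient libraries, with an interval from 0.664-fold to 1.1-fold. Dusp1, which acts on p38 and JNK, had 1546, 1537 and 1461 CPM in the controls and 1838, 1379 and 2184 CPM in the CXCL12-deficient libraries. Its CXCL12-deficient values lie on both sides of the controls, with an interval from 0.871-fold to 1.62-fold. Per kilobase of exon, Dusp1 had 458 ± 14.1 CPM in controls, Dusp6 35.6 ± 3.4, Dusp2 33.1 ± 11.1 and Dusp5 28.8 ± 6.67, the last 3 within their spread of each other. In CXCL12-deficient libraries Dusp1 had 544 ± 122, Dusp6 30.4 ± 4.14, Dusp5 16.3 ± 2.94 and Dusp2 9.07 ± 3.69 CPM per kilobase (SD, n = 3). Whether the difference of Dusp2 differs from that of Dusp1 was not tested.

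**Figure D4:**
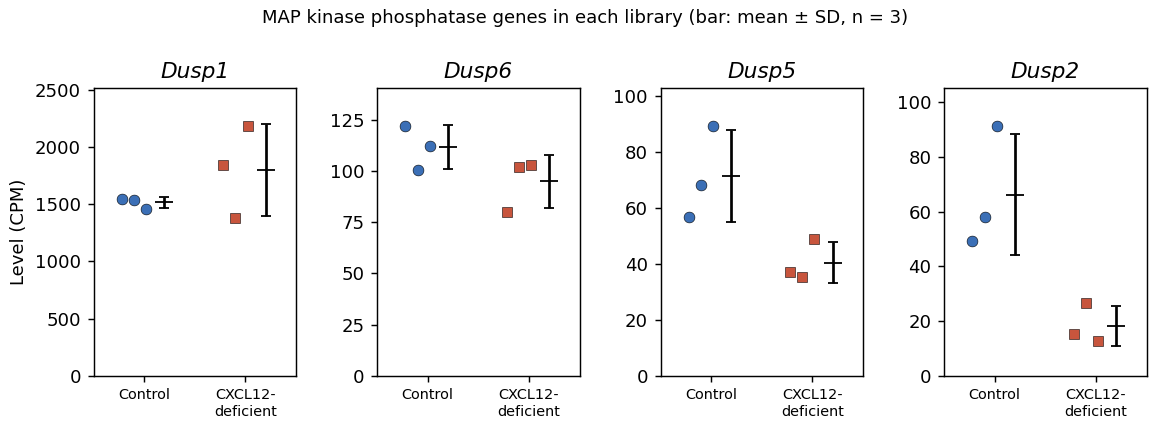
Level in CPM (vertical, from 0, a separate scale for each gene) of the 4 Dusp genes in each control (blue circles) and CXCL12-deficient (red squares) library, with the mean ± SD of 3 beside them. Control values of Dusp2 (49.2 to 91.4 CPM) lie above all CXCL12-deficient values (12.6 to 26.5 CPM), while those of Dusp1 lie among them.

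The remaining inhibitors were abundant, and 0 of them was called by any of the 3 tools. Zfp36, or tristetraprolin, which speeds the decay of cytokine and early response mRNAs, had 1739, 1315 and 1508 CPM in the controls and 2062, 1541 and 1809 CPM in the CXCL12-deficient libraries. The groups overlap, with an interval from 0.884-fold to 1.59-fold. Socs3, the feedback inhibitor of gp130 and leptin receptor signalling, had 1227, 621 and 825 CPM in the controls and 1358, 1391 and 959 CPM in the CXCL12-deficient libraries. Control replicate 1 lay with the higher values, and the spread of the controls (34.7% of their mean) was the widest among the inhibitors, so a difference of Socs3 up to 2.10-fold lies inside its interval. Btg2, an inhibitor of cell division, had 593 ± 57.7 and 495 ± 110 CPM. Nfkbia, the inhibitor of NF-kB that NF-kB itself induces, had 391, 680.4 and 590.1 CPM in the controls and 410.3, 352 and 614 CPM in the CXCL12-deficient libraries, with no order between the groups.

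The growth arrest and damage genes split in sign, and 0 was called by limma-voom, edgeR or DESeq2. Gadd45g, which binds and activates a kinase of the p38 and JNK pathway, had 547, 537 and 329 CPM in the controls and 691, 601 and 697 CPM in the CXCL12-deficient libraries. Every CXCL12-deficient library was above every control, most of all above control replicate 3. The log2 fold change of Gadd45g was 0.49 ± 0.21 (adjusted p = 0.25, edgeR), and it was the 1 gene of the set with an unadjusted p below 0.05 on the higher side. Gadd45b had 200.2 ± 30.5 CPM in the controls and 214 ± 37.6 CPM in the CXCL12-deficient libraries. Ppp1r15a, which restores translation after stress, had 617 ± 105 and 577 ± 113 CPM.

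The inducible chaperone genes differed more between libraries of a group than between the groups. Hspa1a and Hspa1b encode the inducible Hsp70, and their coding sequences in GENCODE M21 agree at 99.4% of aligned bases, with 8 mismatches. How the authors counted reads that match both copies was not stated in the labels, and the split between them is uncertain. The ratio of Hspa1a to Hspa1b counts lay between 0.965 and 1.18 in every library. Hspa1a had 137, 149 and 78.5 CPM in the controls and 103, 121 and 38.8 CPM in the CXCL12-deficient libraries. Replicate 3 was the lowest of each group, replicate numbers being only names. The 2 copies summed had a log2 fold change of -0.45 ± 0.40 (adjusted p = 0.62, edgeR). Dnajb1, the Hsp40 partner of Hsp70, had 465, 836 and 631 CPM in the controls and 608, 506 and 620.3 CPM in the CXCL12-deficient libraries. Its highest and lowest values were both in controls, and the libraries low for Hspa1a were not low for Dnajb1.

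Cyr61 and Rhob link the response to matrix and cytoskeleton. Cyr61, a secreted matrix protein induced by stretch and by SRF and YAP, had 4729.7, 4292 and 3888 CPM in the controls and 3770.5, 2974 and 5821 CPM in the CXCL12-deficient libraries. The CXCL12-deficient libraries held both the highest and the lowest value, with an interval from 0.651-fold to 1.45-fold, and Cyr61 ranked between 4 and 13 of all genes per kilobase of exon. Rhob, a small GTPase of actin and endosome traffic, had 142 ± 23.0 and 128 ± 16.5 CPM.

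Within a group, some libraries held the extreme value of many genes of the set. In controls 25 of the 36 genes (69.4%) were highest in replicate 1, 8 in replicate 2 and 3 (Dusp2, Dusp5 and Btg2) in replicate 3. Control replicate 1 was the highest control for 37.5% of all tested genes. The lowest controls were spread more evenly, with 17 genes of the set lowest in replicate 3, 11 in replicate 2 and 8 in replicate 1. Control replicate 3 was thus lowest for 47.2% of the set, against 34.1% of all tested genes and 40.8% of those with a mean of at least 100 CPM. Of the 36 genes 23 (63.9%) were lowest in CXCL12-deficient replicate 2, against 34.4% of all tested genes and 38.6% of those with at least 100 CPM. The 23 include Fos, Fosb, Jun, Junb, Jund, Egr1, Egr2, Ier2, Atf3 and Dusp1. Dusp2 and Dusp5 were among the 8 genes lowest in control replicate 1, with Jund, Ier5, Btg2, Dnajb1, Nfkbia and Ppp1r15a. The highest CXCL12-deficient value was in replicate 3 for 17 genes, in replicate 1 for 12 and in replicate 2 for 7. Replicate 3 was thus highest for 47.2% of the set, against 32.5% of all tested genes and 30.9% of those with at least 100 CPM. These counts are descriptions, and genes are not independent of each other. The labels give no order of digestion or sorting, and the part of handling in these differences was not tested.

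**Figure D5:**
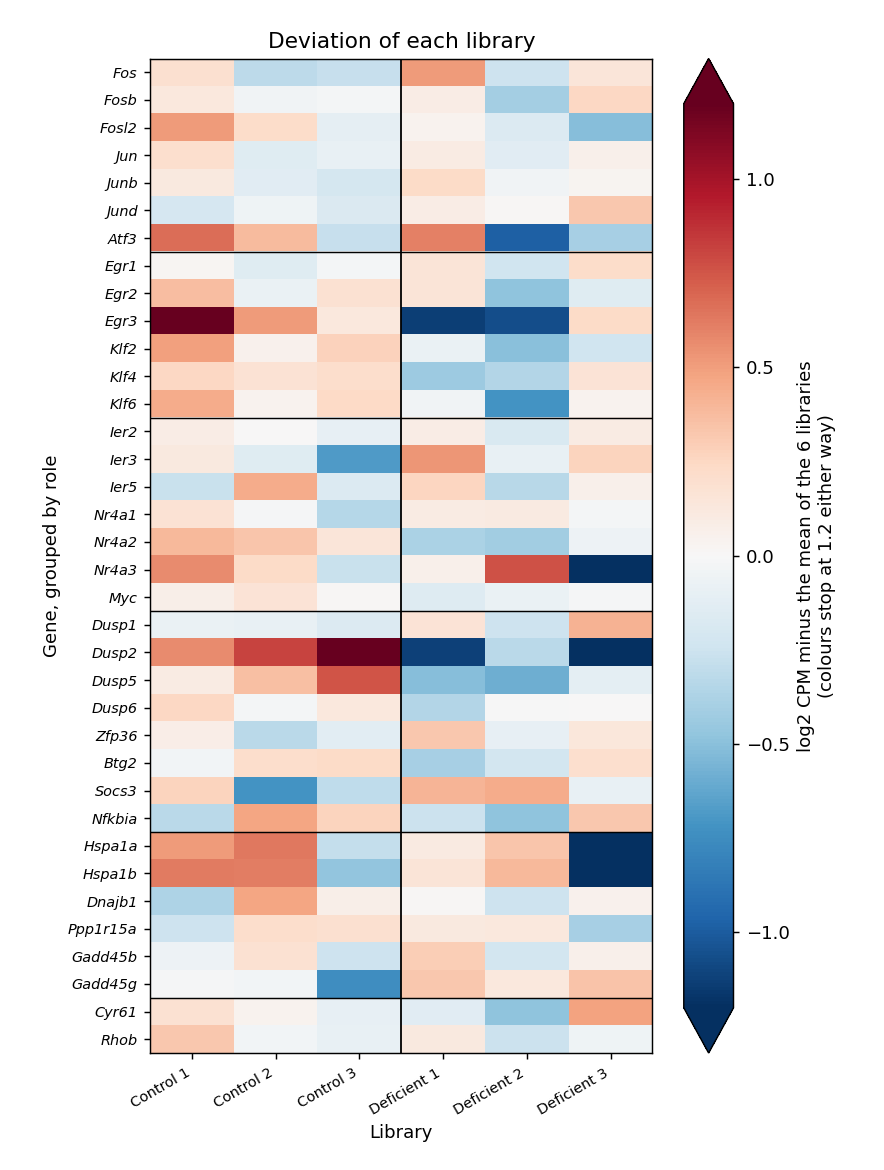
Log2 CPM of each gene in each library minus the mean of the 6 libraries (colour, red above and blue below), with genes in rows grouped by role and a vertical line between the groups. Dusp2, Dusp5, Klf2, Nr4a2 and Myc are above their mean in all 3 controls and below it in all 3 CXCL12-deficient libraries. Jund and Gadd45g show the reverse.

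Further genes of the pathway were counted in the same way. Of 39 tested among 40 other early response genes, 1 fell and 0 rose by edgeR, while DESeq2 called 5 and limma-voom 1, and 7 had an unadjusted p below 0.05, with a median log2 fold change of -0.02. Over all genes edgeR called 4.57%, DESeq2 8.59% and limma-voom 4.48% in either direction and 18.9% had an unadjusted p below 0.05, and the counts of these lists are read against those shares. The gene that fell by edgeR is Nfkbid, an NF-kB regulator of lymphocytes, with 36.7, 37.5 and 76.1 CPM in the controls and 18.7, 12 and 6.21 CPM in the CXCL12-deficient libraries (log2 fold change -2.02 ± 0.43, adjusted p = 0.032, edgeR). Nfkbid was highest in control replicate 3, like Dusp2, but its highest CXCL12-deficient library was replicate 1, unlike Dusp2. The part of leukocytes in the fall of Nfkbid was not tested. Of 24 measured upstream regulators (Srf, the Elk factors, Creb1, MAP kinases, NF-kB and YAP genes among them) 0 was called by limma-voom, edgeR or DESeq2, with 2 at an unadjusted p below 0.05 and a median of -0.01. The 2 most abundant, Atf4 and Rela, had 253 ± 21.3 and 186 ± 5.19 CPM in the controls and 242 ± 39.5 and 218 ± 40.1 CPM in the CXCL12-deficient libraries. Of 20 other heat shock and chaperone genes 0 was called by any of the 3 tools, with 2 at an unadjusted p below 0.05 and a median of -0.06. Among them Hspa8, the constitutive Hsp70, had 3089 ± 993 and 3324 ± 838 CPM, and Hspa5, the Hsp70 of the endoplasmic reticulum, had 2893 ± 624 and 3136 ± 893 CPM.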

How the data were processed

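The authors deposited whole-number read counts per gene, and a second table whose signal is those counts divided by 1 size factor per library. The submitters' processing notes name TopHat2 2.0.13, Bowtie2 2.2.1, HTSeq and DESeq2 and the build mm10, without the role of each. The annotation used and any strand setting were not stated there. Of 17131 entries, 4 exon entries of Cxcl12 were summed to 1 gene. Libraries were grouped by the labelled genotype, and replicate numbers only name them. The edgeR filter (minimum count 10, minimum total count 15) kept 13926 genes, which were fitted together in edgeR 4.0.16 (R 4.3.3) with TMM factors and robust quasi-likelihood F-tests. P-values were adjusted by Benjamini and Hochberg's method, with a threshold of 0.05. Standard errors and 95% intervals came from the F statistic. Alternatives used DESeq2 1.42.0, limma-voom (limma 3.58.1), other size factors and filters, and each library left out. Exon lengths came from GENCODE M21 and promoters from RefSeq (GRCm38.p6), matched by symbol, with Cyr61 under its newer symbol Ccn1. The genes, lists and tests were chosen with earlier results of these data known. All 36 genes are named. From each further pathway list the called genes are named, or else the 2 most abundant. In the marker lists Adgre1 and Ahsp were matched to no entry, nor were 3 kinase genes of the regulator list. Ptprc and Cxcl12 were added for comparison, and the other marker lists are not described.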

Additional observations from a re-analysis of the deposited data

How the results depend on the processing

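Dusp2 was lower in all 13 alternatives, with log2 fold changes from -2.24 to -1.58, and had an adjusted p below 0.05 in 10 of them. The number of the 36 genes called, 1 in the full edgeR comparison, was 2 with a filter of 5 CPM in 3 libraries (Dusp2 and Dusp5), 4 by DESeq2, 0 at an adjusted p below 0.01, and 0 to 2 with 1 library left out (0 without control replicate 2, control replicate 3 or CXCL12-deficient replicate 1). Over all genes the count of 637 became 1328 by DESeq2, 80 at an adjusted p below 0.01, and 74 to 577 with 1 library left out, with 74 when control replicate 3 was left out and 160 when control replicate 2 was. Of the other early response genes 5 were called by DESeq2, 0 at an adjusted p below 0.01 and 0 to 2 with 1 library left out. The cause was not tested, beyond the stricter threshold and the smaller number of samples. The median log2 fold change of the set stayed between -0.199 and -0.074. Of 468 single alternative values 25 changed sign, all of genes not called in the full comparison. Jun had -0.018 with the filter of 5 CPM, and Ier2 -0.023 there, -0.0040 with DESeq2 size factors and -0.0032 by DESeq2. With 1 library left out the log2 fold changes ran from -0.15 to 0.15 for Fosb, -0.052 to 0.11 for Jun, -0.054 to 0.098 for Ier2, -0.18 to 0.23 for Ier5, -0.038 to 0.21 for Nr4a1, -0.69 to 0.24 for Nr4a3, -0.36 to 0.078 for Dnajb1, -0.35 to 0.16 for Cyr61, -0.25 to 0.058 for Ppp1r15a and -0.035 to 0.22 for Gadd45b. No paired analysis was possible because the labels give no replicate numbers. With 1 read worth up to 0.0472 CPM, depth limits Egr3 and Nr4a3 most.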
